A study of Drosophila melanogaster with 8 samples.

Results

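The comparison described here sets late pupal heads of flies that carried 2 different deletion alleles of TBPH, the fly gene for TDP-43, against heads of wild-type flies. Its members are the 2 libraries labelled dTDP-43 delta23/delta142 and the 2 wild-type libraries, 4 of the 8 libraries of the series, chosen by their titles, with every gene of the count tables. The other 4 libraries belong to a second loss-of-function genotype, delta142 over the deficiency Df(2R)106 (2 libraries), and to a gain-of-function genotype, act5c>dTDP-43 (2 libraries), in which the label names the actin 5C driver, a broadly active promoter. They enter here to share the estimate of the spread between libraries and for the values set beside those of delta23/delta142.

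Each library was made from the total RNA of 150 pooled heads, 73 to 90 h after puparium formation, after removal of ribosomal RNA. The delta23/delta142 animals carried no normal TBPH allele according to their genotype field, and they had neither a deficiency nor a transgene. The titles of the wild-type libraries name Canton S and w1118, whereas their genotype field names w1118 alone, which leaves the stock unsettled, and no source used here gives the background of the delta23/delta142 stock. Differences between the stocks and differences between the TBPH alleles cannot be told apart. The series calls its replicates biological, but no label ties them to separate crosses, and the p-values therefore reflect only how much these libraries varied, which may be technical. In whole heads, fewer cells of a type and less RNA per cell cannot be told apart.

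TDP-43 is a nuclear RNA-binding protein that recognises UG-rich stretches in transcripts and acts on their splicing, stability and transport. In human motor neuron disease it leaves the nucleus and forms cytoplasmic aggregates, and flies are used to ask which transcripts depend on its loss or excess. The fly protein is expressed in neurons and muscle, and flies without it have been described with weak movement and defects of neuromuscular synapses. Late pupal heads are a moving target, because in the sampled window the eye, the brain, the head muscles and the adult cuticle are all maturing.

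Total counts per library were 1160738 and 1302855 in delta23/delta142 and 868003 and 716027 in wild type, so that 3 counts in 1 library correspond to 2.3 to 4.19 CPM, the unit of level used here, in which counts are scaled to library size. Of 15141 genes, 9252 had enough counts to be tested, 4468 had counts in these 4 libraries but too few, and 1421 had none in them. The wild-type libraries stood apart from the other 6 libraries on the first principal component of log2 CPM, at 42.4 and 46.8, against -1.53 and -8.51 for delta23/delta142 and -24.5 to -12.1 for the other genotypes. The head label was met by neuronal and glial markers: elav had 125 and 101 CPM in delta23/delta142 and 101 and 87.1 CPM in wild type. The summed level of 8 neuronal markers was 1054 and 922 CPM against 1051 and 1054 CPM, and that of 6 glial markers 443 and 501 CPM against 488 and 519 CPM. The 7 muscle markers differed more, with 4784 and 4722 CPM in delta23/delta142 against 11970 and 17843 CPM in wild type.

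TBPH itself had 47 and 57 counts in delta23/delta142 and 43 and 40 counts in wild type. These were 40.2 and 44.2 CPM against 49.8 and 57.1 CPM, so both mutant libraries lay below both wild-type libraries by a small margin. The log2 fold was -0.34 (SE 0.30, 95% interval -0.99 to 0.32) and did not pass the test (adjusted p = 0.63). This and every adjusted p below come from the quasi-likelihood test of edgeR, adjusted by the Benjamini-Hochberg method over all genes tested. The labels do not say which bases the deletions remove, and counts from the rest of the gene do not check these alleles. Of the 3 genes on each side of TBPH in the reference gene order, gbb, bgcn, wibg, CG4585 and Thiolase were tested and none was called, and CG5569 had too few counts.

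At an adjusted p of 0.05, 23 genes were higher in delta23/delta142 (0.249% of the genes tested) and 54 were lower (0.584%). At an unadjusted p under 0.05 the numbers were 669 (7.23%) and 793 (8.57%). The libraries of the 2 groups did not overlap for any of the 77 called genes (0.832% of those tested), which is a weak criterion by itself, since it was also met by 26.3% of all genes tested in each direction. Called rises ranged from 0.90 to 6.89 on the log2 scale with a median of 1.69, and called falls from -3.65 to -0.87 with a median of -1.30, while the median over all genes tested was 0.01. The 23 genes that rose included few functional groups: 4 snoRNAs, 2 tRNAs, 2 lipid-droplet proteins and single genes such as Map205, Arc1 and Hsp68. Among the 54 that fell, 12 encode subunits of the respiratory chain or ATP synthase.

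**Figure D1:**
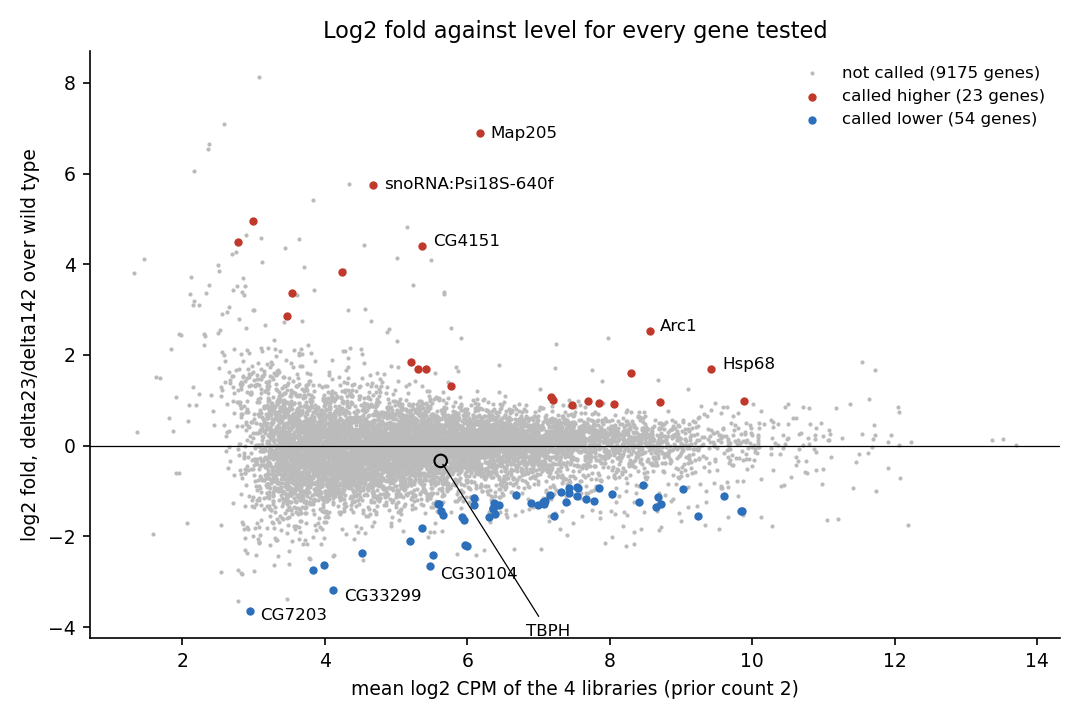
Each point is a gene tested, with its mean log2 CPM over the 2 delta23/delta142 and 2 wild-type libraries on the x axis and the log2 fold of delta23/delta142 over wild type on the y axis. The 23 genes called higher (red) spread up to 6.89 for Map205, the 54 called lower (blue) reach -3.65 for CG7203, and TBPH (circled, -0.34) lies within the grey genes that were not called.

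The call list depended on single libraries. Leaving out delta23/delta142 replicate 1 left 4 genes called higher and 0 lower, and leaving out its replicate 2 left 3 and 0. Without wild-type replicate 1 there were 3 and 3, and without wild-type replicate 2 there were 3 and 1. Leaving out a library of the other genotypes gave longer lists: 43 higher and 79 lower without replicate 1 of the deficiency genotype and 45 and 108 without its replicate 2, and 128 and 263 without act5c>dTDP-43 replicate 1 and 117 and 288 without its replicate 2. Map205 and snoRNA:Psi18S-640f were called in all 8 fits that each leave out 1 of the 8 libraries of the series. Arc1 was called in 7 of them, with adjusted p = 0.0588 without wild-type replicate 2, and each of the other 74 genes lost its call in at least 1 fit. The folds of single genes below are therefore to be read with the values of each library.

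Map205, which encodes a microtubule-associated protein, had the largest rise of any called gene. It had 745 and 645 CPM in delta23/delta142 against 6.94 and 4.29 CPM in wild type. The gene was thus near the detection floor in both wild-type libraries and well expressed in both mutant libraries. The log2 fold was 6.89 (SE 0.31, 95% interval 6.22 to 7.57), a 119-fold difference (adjusted p = 2.64e-07). The level was similar in delta142 over the deficiency, at 703 and 593 CPM, and in act5c>dTDP-43, at 526 and 699 CPM, so wild type was the only genotype of the 4 with low Map205.

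Arc1 encodes a Gag-like protein of retrotransposon origin that forms capsids around its own mRNA and passes between neurons and muscle. It had 882 and 922 CPM in delta23/delta142 against 169 and 143 CPM in wild type. The mutant libraries differed little from each other and were far from the wild-type libraries. The log2 fold was 2.53 (SE 0.26), a 5.77-fold rise (adjusted p = 0.00159). In delta142 over the deficiency it had 638 and 975 CPM, and the direct difference between both loss-of-function genotypes was 0.16 on the log2 scale (adjusted p = 0.88). The list of activity-related genes held no other called member among 8 tested, and Map205 was the only call among 38 microtubule genes tested.

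Other genes called higher carried fewer counts. CG4151, which has no described function here, had 136 and 216 CPM against 10.4 and 5.71 CPM in wild type, a log2 fold of 4.39 (SE 0.59, adjusted p = 0.037). CG33093 had 19.7 and 14.7 CPM, against 1 count in both wild-type libraries together. Its ratio was 26.7, with a 95% counting interval of 4.54 to 1079 (exact Clopper-Pearson). The wild-type level was at the floor for this gene, so the size of the rise is poorly known. CG8539 had 76.9 and 55.8 CPM against 20.8 and 15.7 CPM (log2 fold 1.84, SE 0.33, adjusted p = 0.037). The gene olf186-M had 24.8 and 23.2 CPM against 4.63 and 1.43 CPM (log2 fold 2.87), and without wild-type replicate 1 its fold was 3.97 (adjusted p = 0.17).

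**Figure D2:**
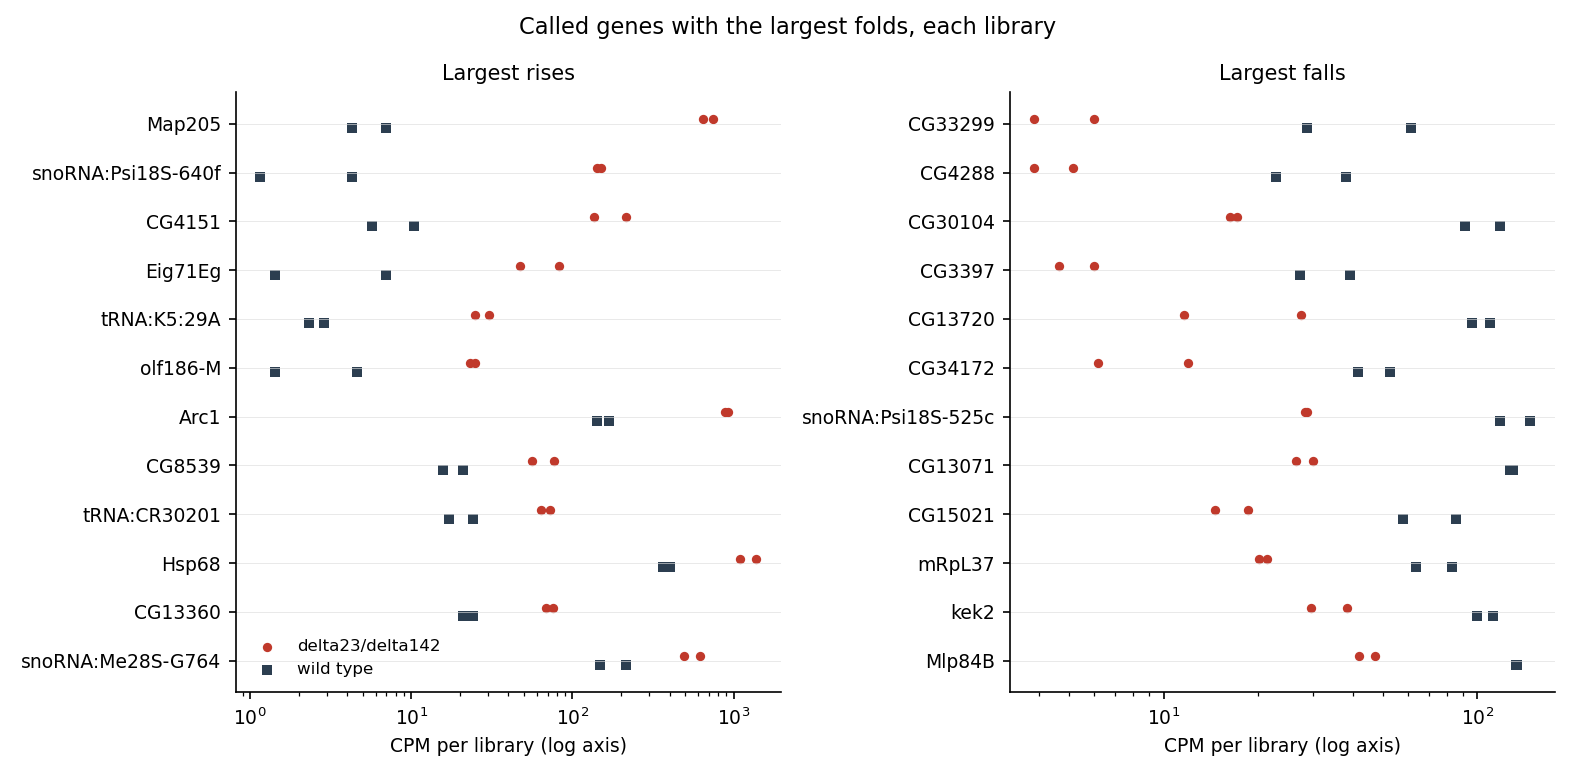
The 12 largest rises (left) and 12 largest falls (right) among called genes whose log2 CPM averaged 3 or more, with the CPM of each delta23/delta142 library (red circles) and each wild-type library (dark squares) on a log axis. The selection required groups without overlap, so the 2 genotypes are separated in every row by rule. Values run from 745 and 645 against 6.94 and 4.29 CPM for Map205 to 41.9 and 47.3 against 134 and 133 CPM for Mlp84B.

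Small nucleolar RNAs, which guide the methylation or pseudouridylation of ribosomal RNA, gave 4 called rises and 2 called falls among 189 tested, with 41 higher and 8 lower at an unadjusted p under 0.05. Over all genes tested, 0.249% were called higher and 0.584% lower, and 7.23% and 8.57% passed the unadjusted p. The median log2 fold of the snoRNAs was 0.34, against 0.01 over all genes. The largest was snoRNA:Psi18S-640f, with 141.9 and 149.5 CPM against 1.16 and 4.29 CPM (log2 fold 5.76, SE 0.54, adjusted p = 0.00159). Without wild-type replicate 1 this fold was 5.06 and without wild-type replicate 2 it was 6.84, and it was called both times. Its neighbour in the gene order, snoRNA:Psi18S-525i, had 22.2 and 24.8 CPM against 1.16 and 0 CPM. That is 58 counts against 1, a ratio of 36.9 (95% counting interval 6.36 to 1481). Both copies were thus nearly unread in wild type. Called rises at higher levels were snoRNA:Me28S-G764, with 619 and 490.4 CPM against 215 and 147 CPM (log2 fold 1.61), and snoRNA:Me18S-C1096, with 1236 and 1426 CPM against 635 and 716 CPM (log2 fold 0.98).

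Called snoRNAs went both ways. A copy with a closely related name, snoRNA:Psi18S-525c, fell from 118 and 147 CPM in wild type to 28.2 and 28.7 CPM (log2 fold -2.21, SE 0.41, adjusted p = 0.042). snoRNA:185 fell from 927 and 1144 CPM to 303 and 405 CPM (log2 fold -1.55, adjusted p = 0.021). Copies of the Psi18S-525 and Psi18S-640 families may be alike in sequence, which was not examined. No source used here says how the authors counted reads that match several copies. Such reads could have been split or lost between copies, so these values are uncertain one by one. Small RNA genes took 13.3% and 13.7% of the counts in delta23/delta142 and 10.3% and 11.7% in wild type, and the part of this difference in the snoRNA values was not tested.

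Transfer RNAs gave 2 called rises among 15 tested, where 0.249% of all genes tested were called higher. The list median was -0.35, which turned positive without wild-type replicate 1 and with no filter on low counts (up to 0.30). The lysine tRNA gene listed as tRNA:K5:29A had 24.8 and 30.2 CPM against 2.31 and 2.86 CPM in wild type, a log2 fold of 3.37 (SE 0.66, adjusted p = 0.042). It was also low in the other genotypes, at 4.82 and 1.1 CPM in delta142 over the deficiency and 0.811 and 2.77 CPM in act5c>dTDP-43. The delta23/delta142 libraries were thus above all 6 others. This gene passed the filter on low counts only through those libraries, so it could hardly come out lower. Its rise is therefore no separate support for a rise of tRNA genes. The direct difference from the deficiency genotype was 3.20 on the log2 scale, which did not pass the test (adjusted p = 0.29). The serine tRNA gene tRNA:CR30201 had 64.1 and 72.1 CPM against 24.3 and 17.1 CPM (log2 fold 1.70, SE 0.30, adjusted p = 0.037). tRNA genes occur in near-identical copies, so these 2 values carry the same uncertainty.

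The broadest change by number of called genes was in the nuclear genes for oxidative phosphorylation, the mitochondrial machinery that turns electrons from nutrients into ATP. Of 79 tested, 12 fell and none rose, where 0.584% of all genes tested were called lower and 0.249% higher. These shares also apply to the 3 lists that make up the 79. A further look without adjustment gave 60 lower and 0 higher at p under 0.05, where 8.57% of all genes were lower. The median log2 fold was -0.94, and 77 of the 79 had a negative fold.

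Complex I, which takes electrons from NADH, had 4 falls among 33 genes tested and a median of -0.97. ND-39 (listed as CG6020) had 35.9 and 32.5 CPM in delta23/delta142 against 90.2 and 113 CPM in wild type, a log2 fold of -1.56 (SE 0.32, adjusted p = 0.045). ND-SGDH (l(3)neo18) had 34.2 and 23.2 CPM against 68.3 and 98.6 CPM (log2 fold -1.53, adjusted p = 0.043). In both genes the higher mutant library was below the lower wild-type library. ND-PDSW (Pdsw) fell by 1.45 on the log2 scale and ND-51 (CG9140), the flavoprotein that binds NADH, fell by 1.27. The 2 members with a positive fold included ND-51L1 (CG11423), a second gene for a subunit of this kind, with 10.3 and 19.4 CPM against 12.7 and 7.14 CPM (adjusted p = 0.64).

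Complexes II to IV with cytochrome c had 5 falls among 30 genes tested and a median of -0.86, and all 30 folds were negative. UQCR-C2 (CG4169), a core protein of complex III, had 74.4 and 84.5 CPM against 197 and 199 CPM (log2 fold -1.31, SE 0.22, adjusted p = 0.029). UQCR-C1 (CG3731), its partner, had 124 and 144 CPM against 286 and 317 CPM (log2 fold -1.17, SE 0.20, adjusted p = 0.037). Both core proteins were thus at less than the lower wild-type value in each mutant library. UQCR-11 (CG41623) fell by 1.29, COX8 (CG7181), a subunit of cytochrome c oxidase, fell by 1.37, and COX7AL2 (CG34172), a cytochrome c oxidase 7A-like gene, fell by 2.37 on the log2 scale.

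ATP synthase had 3 falls among 16 genes tested and a median of -0.94, again with every fold negative. The gamma subunit, which forms the central shaft (ATPsyn-gamma), had 77.8 and 92.2 CPM against 189 and 226 CPM (log2 fold -1.28, SE 0.20, adjusted p = 0.028). ATPsynO (Oscp), which joins the catalytic head to the stalk, fell by 0.94 and ATPsynE (CG3321) fell by 1.15 on the log2 scale. The most abundant subunit gene, ATPsyn-beta, had 1410 and 1446 CPM against 1874 and 2437 CPM and was not called (log2 fold -0.59, adjusted p = 0.21). It was named after its values were seen.

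**Figure D3:**
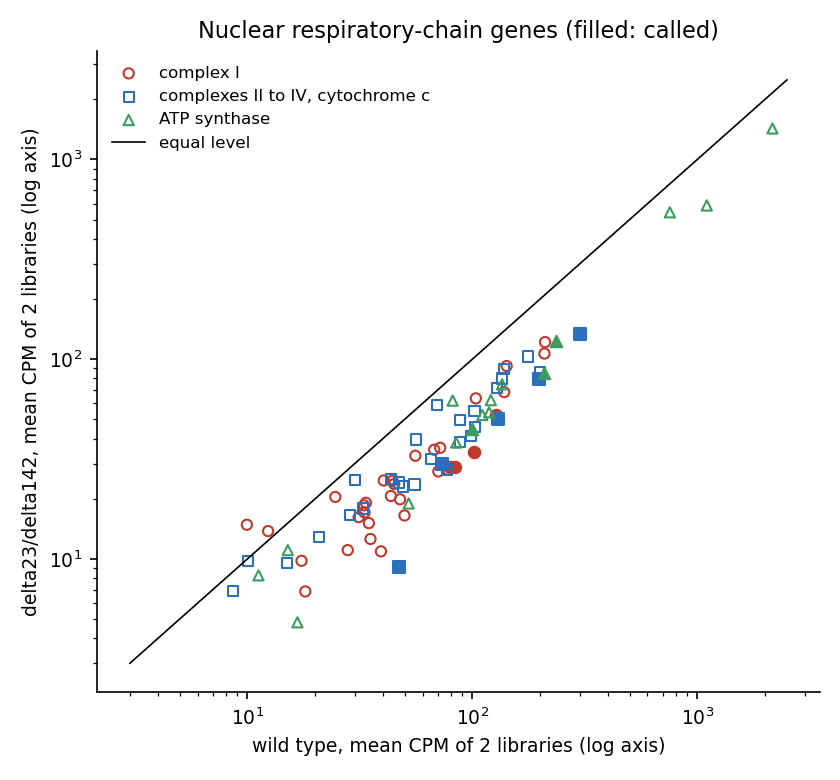
Mean CPM of 2 wild-type libraries (x) against mean CPM of 2 delta23/delta142 libraries (y) for the 79 nuclear genes of the respiratory chain and ATP synthase that were tested, both on log axes, with the line of equal level. Nearly all points lie below the line, 77 of 79 by fitted fold, and the 12 filled points are the genes called lower.

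Other mitochondrial genes moved the same way in fewer calls, where 0.584% of all genes tested were called lower. In the tricarboxylic acid cycle, 2 of 14 genes fell, none rose and the median was -0.70. Malate dehydrogenase Mdh2 (CG7998) had 149.5 and 136 CPM against 337 and 330.0 CPM (log2 fold -1.23, SE 0.19, adjusted p = 0.024), and mitochondrial aconitase mAcon1 (Acon) had 263 and 288 CPM against 566 and 639 CPM (log2 fold -1.13, SE 0.18, adjusted p = 0.029). In the mitochondrial ribosome, 1 of 57 genes fell, with 51 negative folds and a median of -0.78. That gene was mRpL37, at 21.4 and 20.1 CPM against 63.6 and 82.9 CPM (log2 fold -1.81, SE 0.33, adjusted p = 0.037). The outer-membrane channel porin fell by 0.95 and the mitochondrial aspartate aminotransferase Got2 fell by 1.31. The 13 protein-coding genes of the mitochondrial genome are listed at 0 in all 8 libraries, so the mitochondrially encoded subunits were not analysed here.

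Lists of cytosolic energy supply and translation had medians closer to 0. No glycolysis gene of 14 tested passed the test, with 13 negative folds, a median of -0.54 and 8 lower at an unadjusted p under 0.05 (8.57% over all genes). The smallest p there belonged to Gapdh1, a glyceraldehyde-phosphate dehydrogenase, with 156 and 143 CPM against 265 and 339 CPM (adjusted p = 0.071). Among 83 cytosolic ribosomal protein genes, 2 fell, where 0.584% of all genes tested were called lower, and the median was -0.36. RpLP2, of the ribosomal stalk, had 256 and 283 CPM against 535 and 787 CPM (log2 fold -1.29, SE 0.23, adjusted p = 0.037), and RpL30 fell by 1.08. The proteasome list gave no call among 37 tested and a median of -0.23.

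Muscle genes had the lowest median of the 43 lists examined, -1.15 over 36 genes tested, and 34 of the folds were negative. Only 2 were called: Mlp84B, a LIM protein of the sarcomere Z-disc, and the sarcoplasmic calcium pump SERCA (Ca-P60A). Of all genes tested, 0.584% were called lower. Mlp84B had 41.9 and 47.3 CPM in delta23/delta142 against 134 and 133 CPM in wild type, a log2 fold of -1.58 (SE 0.25, adjusted p = 0.028). SERCA had 516 and 547 CPM against 944 and 1341 CPM (log2 fold -1.10, SE 0.21, adjusted p = 0.042). The ryanodine receptor (Rya-r44F), the calcium release channel of muscle and neurons, was outside the list and had 280.2 and 219 CPM against 596 and 681 CPM (log2 fold -1.35, SE 0.21, adjusted p = 0.027). Each of these 3 genes was lower in both mutant libraries than in either wild-type library.

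The most abundant contractile genes had larger negative folds that did not pass the test, and they varied more between libraries. Myosin heavy chain (Mhc) had 2592 and 2537 CPM against 6783 and 10485 CPM (log2 fold -1.75, SE 0.43, adjusted p = 0.11). In the other genotypes Mhc had 3818 and 5595 CPM in delta142 over the deficiency and 874 and 2272 CPM in act5c>dTDP-43, so replicates of 1 genotype differed widely. All 7 muscle markers had negative folds, from -1.77 to -1.04, none was at 0, and none was called. Their sum was 4784 and 4722 CPM against 11970 and 17843 CPM. This difference in muscle markers ran beside the lower values of the mitochondrial and calcium-handling genes, and its part in them was not tested.

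Of 31 phototransduction genes tested, 1 was called lower, 16 were lower and 1 was higher at an unadjusted p under 0.05, and the median was -1.11. Over all genes tested, 0.584% were called lower, and 8.57% were lower and 7.23% higher at that unadjusted p. The called gene was eys, whose secreted product opens the space between the rhabdomeres of the fly eye, with 110.3 and 105 CPM against 266 and 244 CPM (log2 fold -1.25, SE 0.24, adjusted p = 0.040). The light-activated channel trp had 75.2 and 103 CPM against 257 and 243 CPM (log2 fold -1.48, adjusted p = 0.15), while norpA, the phospholipase C of the same cascade, had 129.9 and 111 CPM against 96.0 and 97.1 CPM (log2 fold 0.32, adjusted p = 0.56). Of the 8 photoreceptor markers, 6 were tested, 5 had negative folds and none was called, and their sum was 418 and 422 CPM against 920 and 693 CPM. Eye pigment genes, which act in pigment cells as well, had a median of 0.04 over 21 tested, with no call. The white gene (w) had 39.3 and 38.0 CPM against 27.8 and 40.0 CPM.

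Neuronal lists held 1 call. Of 21 voltage-gated channel genes tested, 1 fell, where 0.584% of all genes tested were called lower, and the median was -0.40. That was slo, the calcium-activated BK potassium channel, with 133 and 136 CPM against 249 and 254 CPM (log2 fold -0.90, SE 0.18, adjusted p = 0.042). The sodium channel gene para had 60.7 and 62.8 CPM against 124 and 117 CPM and narrowly missed the threshold (log2 fold -0.96, adjusted p = 0.056). Both channel genes were lower in each mutant library than in each wild-type library. In act5c>dTDP-43 both were called lower than in wild type, slo at -1.19 (adjusted p = 0.0099) and para at -1.30 (adjusted p = 0.012). In delta142 over the deficiency the log2 folds were -0.38 and -0.27, and neither was called. Synaptic release genes gave no call among 22 tested (median -0.18), transmitter genes none among 16 (median -0.48), neuropeptide genes none among 21 (median -0.19) and glial genes none among 18 (median 0.10).

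Single neuronal genes outside these lists also fell. The sodium pump subunit gene nrv3 had 112 and 126 CPM against 236 and 253 CPM (log2 fold -1.03, SE 0.20, adjusted p = 0.042). The synaptotagmin-family gene Syt12 (CG10617) fell by 1.29 and kek2, which encodes a neuronal transmembrane protein with leucine-rich repeats, fell by 1.65. kek2 had 38.5 and 29.4 CPM against 112 and 100.002 CPM (SE 0.26, adjusted p = 0.028), so the genotypes were well separated.

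Odorant-binding protein genes encode small carriers secreted in sensory hairs and elsewhere. They had 2 falls among 10 tested, where 0.584% of all genes tested were called lower, and a median of -0.94. The 2 that fell are neighbours in the gene order. Obp99c had 195 and 248 CPM against 481 and 569 CPM (log2 fold -1.24, SE 0.18, adjusted p = 0.021). Obp99b had 609 and 521 CPM against 1742 and 1304 CPM (log2 fold -1.43, SE 0.27, adjusted p = 0.040). Chemoreceptor genes were mostly too low to test: 10 of 183 passed the filter, with no call and a median of -0.05.

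Fat body genes went both ways. The lipid-droplet proteins Lsd-1 and Lsd-2, the fly perilipins, rose: Lsd-1 had 221 and 193 CPM against 109.9 and 94.3 CPM (log2 fold 1.02, SE 0.19, adjusted p = 0.037), and Lsd-2 had 584 and 583 CPM against 304 and 293 CPM (log2 fold 0.97, SE 0.17, adjusted p = 0.037). Fbp2, a fat-body protein of the larval and pupal stages, fell from 1473 and 1527 CPM to 581 and 529 CPM (log2 fold -1.43, SE 0.26, adjusted p = 0.037). The list had 2 rises and 1 fall among 21 tested, and a median of 0.19. Of all genes tested, 0.249% were called higher and 0.584% lower. The storage protein gene Lsp1gamma had 5142 and 6130 CPM against 1664 and 1486 CPM but was not called (log2 fold 1.84, SE 0.69, adjusted p = 0.28). The act5c>dTDP-43 libraries had 1531 and 7426 CPM of it. The 6 fat body markers summed to 29531 and 34294 CPM against 27643 and 25001 CPM, and their part in these values was not tested.

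**Figure D4:**
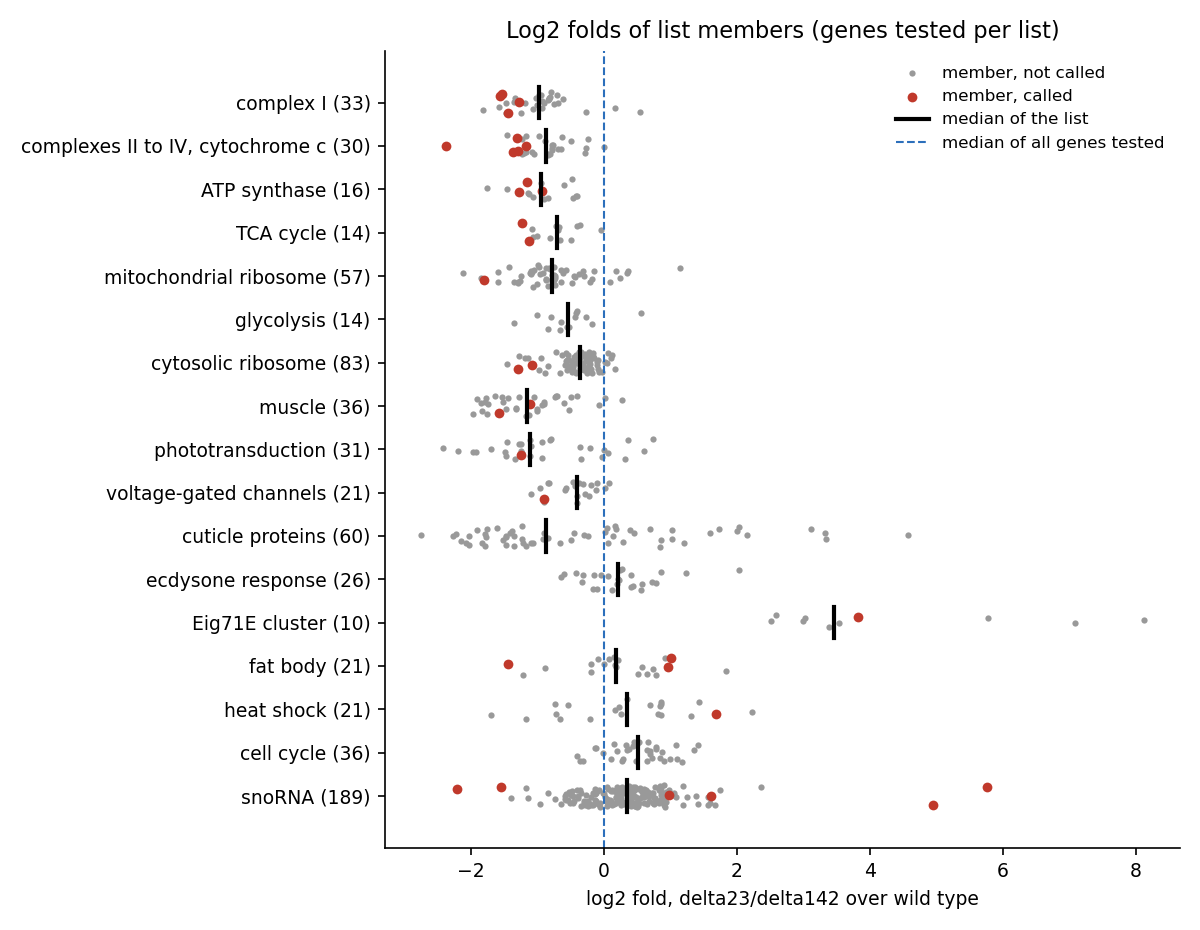
Log2 folds of delta23/delta142 over wild type (x) for the tested members of 17 gene lists, with each list's median as a black bar, called members in red and the median of all genes tested (0.01) as a dashed line. The 3 respiratory lists sit around medians of -0.97, -0.86 and -0.94, muscle at -1.15, and the Eig71E cluster lies wholly to the right of 0.

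Heat-shock genes went both ways. Of 21 tested, 1 was called higher, and 9 were higher and 4 lower at an unadjusted p under 0.05, with a median of 0.34. Over all genes tested, 0.249% were called higher, and 7.23% were higher and 8.57% lower at that unadjusted p. Hsp68, a stress-inducible member of the Hsp70 family, had 1376 and 1097 CPM in delta23/delta142 against 362 and 403 CPM in wild type, a log2 fold of 1.69 (SE 0.29, adjusted p = 0.037). It had 187 and 360 CPM in delta142 over the deficiency and 503 and 695 CPM in act5c>dTDP-43. The delta23/delta142 libraries were thus above all 6 others. The deficiency genotype was below wild type, but its replicate 2 (360 CPM) nearly equalled wild-type replicate 1 (362 CPM). The direct difference between both loss-of-function genotypes was 2.18 on the log2 scale and did not pass the test over all genes (adjusted p = 0.073).

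The other genes of the list did not pass the test, and those given here were named after their values were seen. The Hsp40 gene DnaJ-1 had 666 and 678 CPM against 249.9 and 246 CPM in wild type, a log2 fold of 1.44 (SE 0.33, adjusted p = 0.096) and 166 and 295 CPM in the deficiency genotype. The co-chaperone gene stv had 373 and 288 CPM against 83.3 and 55.7 CPM (log2 fold 2.24, SE 0.51, adjusted p = 0.12). Hsp83, the fly Hsp90, had 2427 and 2108 CPM against 1218 and 1280.0 CPM (log2 fold 0.86, adjusted p = 0.064), and the heat-shock transcription factor Hsf had 243 and 242 CPM against 137 and 130.0 CPM (log2 fold 0.86, adjusted p = 0.10). The constitutive Hsc70-4 had 1837 and 1886 CPM against 1619.9 and 1690.0 CPM (log2 fold 0.17, adjusted p = 0.72), and the mitochondrial chaperone Hsp60 had 145 and 183 CPM against 259 and 257 CPM (log2 fold -0.66, adjusted p = 0.11). Hsc70-1 had the most negative fold of the list, with 25.6 and 24.8 CPM against 54.4 and 111 CPM (log2 fold -1.70, SE 0.52, adjusted p = 0.17). The median fold of the 21 genes was -0.29 in the deficiency genotype against the same wild-type libraries, and the median direct difference between both loss-of-function genotypes was 0.59.

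**Figure D5:**
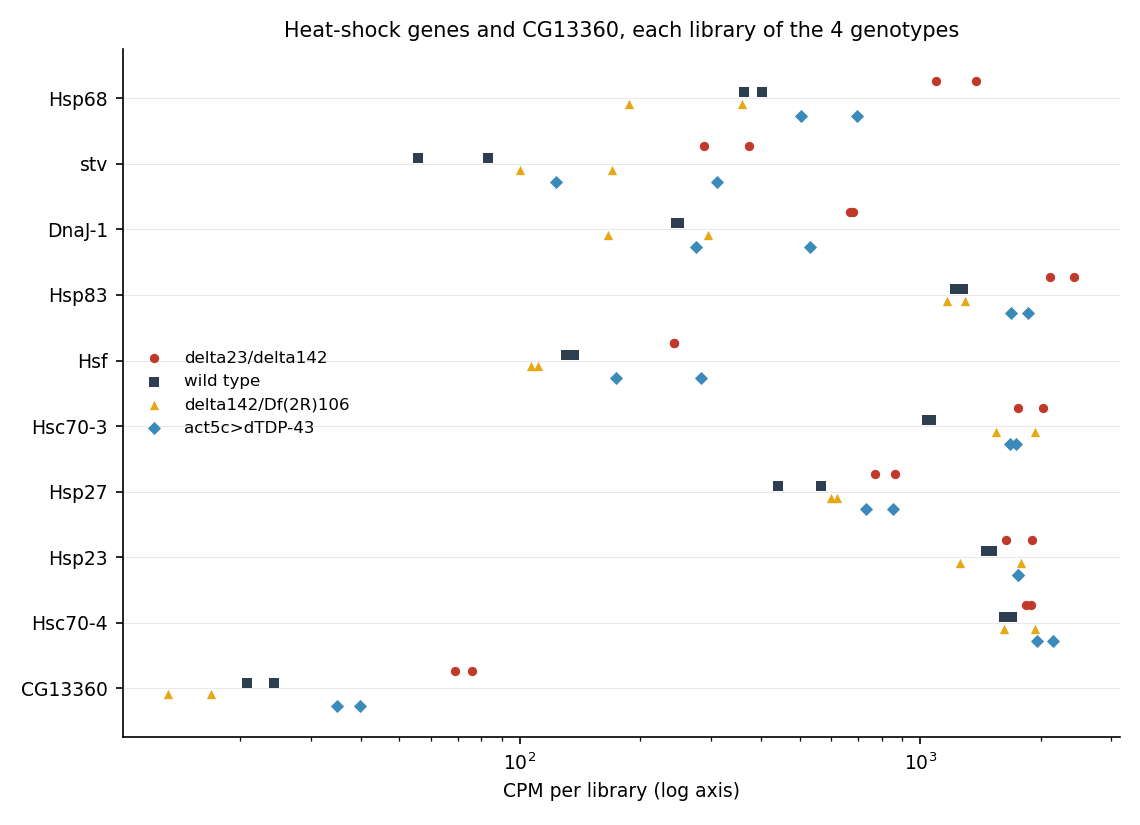
CPM of each library (log axis) in the 4 genotypes for 9 heat-shock genes and for CG13360. For Hsp68, DnaJ-1, Hsp83 and CG13360 both delta23/delta142 libraries (red circles) lie to the right of the 6 others, while for Hsc70-4 they lie within the range of the 6 others.

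CG13360, a gene with no described function here, followed the pattern of Hsp68. It had 76.1 and 69.0 CPM in delta23/delta142 and 20.8 and 24.3 CPM in wild type, a log2 fold of 1.69 (SE 0.29, adjusted p = 0.037). It had 16.9 and 13.2 CPM in the deficiency genotype and 34.9 and 39.8 CPM in act5c>dTDP-43. The direct difference from the deficiency genotype was 2.26 on the log2 scale (adjusted p = 0.063), the smallest adjusted p of that comparison.

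The direct comparison of delta23/delta142 with delta142 over the deficiency, in which wild type takes no part, called 0 genes in either direction (0%) with edgeR. At an unadjusted p under 0.05 it gave 492 higher (5.32%) and 377 lower (4.07%), DESeq2 called 3 higher and 5 lower, and limma-voom called 0 and 0. A p that misses the threshold does not show that both genotypes are alike. For the 79 oxidative phosphorylation genes, the median log2 fold against wild type was -0.94 in delta23/delta142, -0.61 in delta142 over the deficiency and -1.22 in act5c>dTDP-43. These 3 values share the same wild-type libraries. For the 36 muscle genes the corresponding medians were -1.15, -0.57 and -1.50. All 54 called falls had the same sign in both other genotypes against wild type, and 44 were also called in act5c>dTDP-43 and 15 in delta142 over the deficiency. Of the 23 called rises, 22 had the same sign in act5c>dTDP-43 (16 called) and 21 in delta142 over the deficiency (10 called). The same wild-type libraries enter each comparison, so these counts are not independent.

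Hormone-response genes of the Eig71E cluster, which ecdysone induces in the prepupal salivary gland, had higher values in delta23/delta142. All 10 tested had positive folds without overlap of the libraries, 8 had an unadjusted p under 0.05, and 1 was called. Over all genes tested, these shares for rises were 26.3%, 7.23% and 0.249%. Eig71Eh and Eig71Ei had no wild-type count and Eig71Ek had 2 and 1. They passed the filter only through genotypes other than wild type, delta23/delta142 among them, and could hardly come out lower. The tally is therefore no separate support for a rise of the cluster. Eig71Eg had 47.0 and 82.1 CPM against 6.94 and 1.43 CPM (log2 fold 3.83, SE 0.64, adjusted p = 0.043). Without wild-type replicate 1 its fold was 5.40 (adjusted p = 0.14), and without wild-type replicate 2 it was 3.21 (adjusted p = 0.28). Eig71Eh and Eig71Ei had no count in wild type and were at least 17.8-fold and at least 8.69-fold higher when wild type was set to a floor of 3 counts for the group. The median log2 fold of the cluster was 3.47, or 3.25 with those 2 genes at their bounds. In delta142 over the deficiency Eig71Eg had 370.1 and 189 CPM, more than in delta23/delta142. Sequence similarity among the cluster's genes was not examined, and no source used here gives the handling of any reads shared between them.

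The classical ecdysone-response genes, receptors and early genes of the hormone, gave no call among 26 tested and a median of 0.22. At an unadjusted p under 0.05, 7 were higher and 1 lower, where 7.23% of all genes tested were higher and 8.57% lower. The smallest p belonged to Eip93F, a transcription factor of the late pupal ecdysone response, with 1021 and 922 CPM against 579 and 601 CPM (log2 fold 0.72, SE 0.20, adjusted p = 0.11). The ecdysone receptor EcR had 467 and 442 CPM against 334 and 339 CPM (log2 fold 0.43, adjusted p = 0.22). Cyp18a1, which inactivates ecdysone, had 52.1 and 57.3 CPM against 20.8 and 21.4 CPM (log2 fold 1.37, SE 0.32, adjusted p = 0.071). In these 3 genes the mutant libraries were above the wild-type libraries without passing the test.

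Cuticle genes varied strongly between libraries of the same genotype. Of 60 cuticle protein genes tested, none was called, 36 had negative folds, the median was -0.87 and folds ran from -2.74 to 4.58. That median was 0.0 with no filter on low counts, -0.41 without wild-type replicate 1 and -0.46 without wild-type replicate 2. The tanning enzyme gene ple, tyrosine hydroxylase, had 143 and 440.1 CPM in delta23/delta142 against 75.2 and 103 CPM in wild type (adjusted p = 0.40), and ebony (e) had 48.7 and 239 CPM against 142.3 and 114 CPM (adjusted p = 0.95). Both enzymes were thus several times higher in delta23/delta142 replicate 2 than in replicate 1. Among the Osiris genes, a family of cuticle-associated membrane proteins, no gene of 19 was called (median -0.84). Osi18 had 32.5 and 31.0 CPM against 72.9 and 270.0 CPM (log2 fold -2.41, adjusted p = 0.13). It was called without wild-type replicate 1 (log2 fold -3.08, adjusted p = 0.0026), while without wild-type replicate 2 the fold was -1.19 (adjusted p = 0.33).

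The largest falls ended at low levels in delta23/delta142, from wild-type levels of 22.9 to 118 CPM in the 3 genes given here. CG33299 had 5.98 and 3.87 CPM against 61.3 and 28.6 CPM (log2 fold -3.19, SE 0.60, adjusted p = 0.042), and without wild-type replicate 1 its fold was -2.51 (adjusted p = 0.24). CG30104, now NT5E-2, a 5'-nucleotidase gene, had 17.1 and 16.3 CPM against 118 and 91.4 CPM (log2 fold -2.65, SE 0.38, adjusted p = 0.021). CG4288, now MFS9, a transporter of the major facilitator superfamily, had 5.13 and 3.87 CPM against 38.2 and 22.9 CPM (log2 fold -2.75, SE 0.49). In all 3 the mutant values were near the floor of 3 counts or a few times above it.

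CG3397 fell by 2.63, CG13720 by 2.41, CG13071 by 2.19 and CG15021 by 2.09 on the log2 scale, and no function is given for them here. CG13720 had 27.4 and 11.6 CPM against 96.0 and 109.9 CPM, and without delta23/delta142 replicate 1 its fold was -3.12 (adjusted p = 0.14). CG7203 had the most negative fold of all called genes but fell outside the level rule for named genes. It had 3 counts in both delta23/delta142 libraries together against 26 in wild type, a level 13.6-fold lower with a 95% counting interval of 4.18 to 70.4.

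Among the remaining rises, sgl, which encodes the UDP-glucose dehydrogenase needed for proteoglycan chains, had 83.8 and 81.4 CPM against 32.4 and 34.3 CPM (log2 fold 1.31, SE 0.24, adjusted p = 0.037). The zinc-finger transcription factor gene ovo had 201 and 212 CPM against 97.2 and 98.6 CPM (log2 fold 1.08, SE 0.22, adjusted p = 0.044). Gbs-70E (CG9238), a glycogen-binding subunit of protein phosphatase 1, rose by 0.93 and Dsp1, an HMG-box chromatin protein, rose by 0.90. In each of these genes the mutant libraries were close to each other and above both wild-type libraries.

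Of the 43 gene lists examined, 26 held no called gene. At an unadjusted p under 0.05, 7.23% of all genes tested were higher and 8.57% lower. Besides those described, no call was made among cell-cycle genes (36 tested, median 0.52, 10 higher and 0 lower at an unadjusted p under 0.05), neuronal RNA-binding proteins (38 tested, median 0.12), antimicrobial genes (23 tested, median 0.04), cell-death genes (14 tested, median 0.18), autophagy genes (20 tested, median -0.01), circadian clock genes (11 tested, median 0.16), haemocyte genes (12 tested, median 0.01), chitin genes (31 tested, median 0.03), tanning genes (17 tested, median -0.09), ecdysteroid enzymes (11 tested, median 0.13), spliceosomal snRNAs (10 tested, median -0.51) or glutathione and UDP-glucosyl transferases (35 tested, median 0.04). The cell-cycle gene with the smallest p was E2f, the activating E2F transcription factor, with 273 and 269.6 CPM against 176 and 160.0 CPM (adjusted p = 0.087). Of 49 cytochrome P450 genes none was called, and Cyp9b2 came closest, with 41.9 and 39.5 CPM against 13.9 and 8.57 CPM (log2 fold 1.82, adjusted p = 0.054). Lists held 38 of the 77 called genes, and 39 were in none.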

How the data were processed

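The authors deposited 1 table of whole-number read counts per gene for each library. HTSeq and the dm3 build are named in the submitters' processing notes, and per the labels' protocols the libraries were made for SOLiD sequencing after ribosomal RNA removal. No version, aligner, annotation, strand setting or rule for multiply matching reads is given in the sources used here. Reads of overlapping or antisense genes therefore cannot be told apart. Groups follow the titles. Of 15141 symbols, 14375 (94.9%) matched a Release 6 gene table, used for names and gene order only, and no coordinates or sequences are given because no genome of the files' build was used.

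Counts were tested with edgeR 4.0.16 (R 4.3.3, limma 3.58.1, statmod 1.5.0): filterByExpr (minimum count 10, minimum total 15), TMM scaling, 4 group means fitted to all 8 libraries with 4 residual degrees of freedom, the robust quasi-likelihood test and Benjamini-Hochberg adjustment over 9252 genes. A gene is called at an adjusted p of 0.05. The common biological coefficient of variation was 20.7%. CPM were TMM-scaled, with a prior count of 2 on the log2 scale. Counting intervals are 95% exact Clopper-Pearson intervals and, like floors of 3 counts, cover counting error only. Replicates differed by more than sampling noise (chi-square per degree of freedom 3.09 in delta23/delta142 and 3.17 in wild type). They differed more in the other genotypes, at 6.08 in delta142 over the deficiency and 9.52 in act5c>dTDP-43. Those libraries share the estimate of the spread behind every p of the 8-library fit. DESeq2 1.42.0, limma-voom, other scalings, filters and fits without 1 library were alternatives. The test was also run on simulated counts, drawn independently for each library at the spread estimated from these data. Such counts cannot check differences between stocks or whether the replicates are independent.

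The comparison, the lists and the tests were chosen with earlier results of these data known. Named genes are TBPH and 3 genes on each side, the 12 largest called rises and falls that averaged 3 or more in log2 CPM and whose groups did not overlap, and for each list the called members with the smallest p, or the member with the smallest p where none was called. Other genes in the text were chosen after their values were seen.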

Additional observations from a re-analysis of the deposited data

Results flagged for a closer look

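Hsp68 and CG13360 stood out because both delta23/delta142 libraries were above both wild-type libraries while both libraries of delta142 over the deficiency were below them. For Hsp68, replicate 2 of the deficiency genotype, at 360 CPM, was only just below the lower wild-type library. For Hsp68 the difference between both loss-of-function genotypes was 2.18 on the log2 scale (1376 and 1097 CPM against 187 and 360 CPM, adjusted p = 0.073 in edgeR's quasi-likelihood test of that difference). For CG13360 it was 2.26 (76.1 and 69.0 CPM against 16.9 and 13.2 CPM, adjusted p = 0.063). Neither difference passed the threshold over all genes, and no cause was tested.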

How the results depend on the processing

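Against wild type, 23 genes were called higher and 54 lower. An adjusted p of 0.01 left 3 and 0, limma-voom 2 and 12 and edgeR without robust estimation 7 and 12. DESeq2 called 36 and 74, of which 13 and 38 were among the 23 and 54. No filter on low counts gave 63 and 125, and fitting only the 4 libraries compared gave 248 and 450. Other scalings, a filter of at least 50 counts and leaving out small RNA genes gave 22 to 28 higher and 55 to 79 lower. Leaving out 1 library gave 3 to 128 higher and 0 to 288 lower; without wild-type replicate 1, none of the 3 lower genes was among the 54, and without act5c>dTDP-43 replicate 1 the counts were 128 and 263. No label says that libraries of the same number are paired. Deviations from the group means of same-numbered libraries correlated at -0.02 between delta23/delta142 and wild type. The highest values were 0.17 between both other genotypes and 0.13 between act5c>dTDP-43 and delta23/delta142. A replicate block gave 147 calls, which held all 77 genes, with 43 higher and the rest, about 1.0e+02, lower. Whether same-numbered libraries share an effect was not tested.

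Between delta23/delta142 and delta142 over the deficiency, 0 genes were called either way. DESeq2 called 3 higher and 5 lower, upper quartile scaling 2 and 0, leaving out small RNA genes 1 and 0, no filter 5 and 2, the replicate block 2 and 1, and fits without 1 library 0 to 12 higher and 0 to 12 lower. They reached 12 and 12 without replicate 1 of the deficiency genotype and 12 and 3 without act5c>dTDP-43 replicate 1.

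The TBPH fold stayed between -0.43 and -0.23 in the 18 alternatives run, with adjusted p from 0.48 to 0.93. Among the named genes, folds turned sign for 4 neighbours of TBPH that were never called: without 1 library, gbb ran from -0.52 to 0.34, bgcn from -0.18 to 0.89, CG4585 from -0.20 to 0.76 and Thiolase from -0.28 to 0.31, and Thiolase was 0.016 with limma-voom. The causes of these changes were not tested. List medians ranged from -1.07 to -0.75 for oxidative phosphorylation, -1.35 to -0.98 for muscle, -1.14 to -0.74 for phototransduction, 0.32 to 0.56 for heat shock and 3.02 to 5.40 for Eig71E, and from -1.04 to 0.0 for cuticle proteins. The medians of 14 of 44 lists turned sign, tRNA genes from -0.35 up to 0.30 and the other 13 from reported medians of at most 0.19 in size. Of the 77 called genes, 11 were called in all 10 alternatives that keep every library or only the 4 compared, Map205, Arc1, UQCR-C2 (CG4169) and ATPsyn-gamma among them. Depth limits genes near 3 counts, whose folds have wide counting intervals.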

Other observations

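Several genes that did not pass the test had large differences between genotypes and uneven replicates. The neuropeptide-precursor gene Nplp2 had 124 and 210.0 CPM in delta23/delta142 against 4.63 and 7.14 CPM in wild type, 21.7 and 52.8 CPM in delta142 over the deficiency and 18.7 and 97.1 CPM in act5c>dTDP-43 (log2 fold over wild type 4.83, SE 1.10, adjusted p = 0.14, edgeR). Both delta23/delta142 libraries were above the 6 others. Eclosion hormone (Eh), the peptide that starts the ecdysis sequence, had 1.71 and 3.1 CPM against 18.5 and 5.71 CPM (log2 fold -2.30, SE 0.74, adjusted p = 0.16). The stress peptide gene TotB had 9.4 and 7.75 CPM against 59.0 and 40.0 CPM (log2 fold -2.53, SE 0.54, adjusted p = 0.064).

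Cyp6a20, a cytochrome P450 gene known in flies for its link to aggression, had 20 counts in delta23/delta142 and 0 in wild type, at least 4.24-fold higher when wild type was set to a floor of 3 counts for the group (adjusted p = 0.065). snoRNA:Me28S-A771 had 6679 and 5469 CPM against 1792 and 2013 CPM and missed the threshold (log2 fold 1.67, SE 0.37, adjusted p = 0.071). Among the called genes, 20 are known by a CG number alone, 5 higher and 15 lower in delta23/delta142. These genes were chosen after their values were seen.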
